A study of Mus musculus with 14 samples.

Results

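The replication-dependent histone genes were followed in overloaded plantaris muscle of old mice. They were taken as the rows of the deposited array table whose annotation gave a single symbol starting with H2ac, H2bc, H3c or H4c, or the symbols H1f1 to H1f5. In older names these are Hist1h and Hist2h genes. The rule also took older names starting with Hist1h, Hist2h, Hist3h or Hist4h, but the annotation used here has none, and 5 such genes that it gives under newer symbols not in the rule (H2aw, H2bu2, H2bu1-ps, H4f16 and H1f6) are described apart. The rule found 26 rows of 35557, each standing for a different gene, among 19938 genes tested. These were 4 genes of linker histone H1, 4 of H2A, 9 of H2B, 3 of H3 and 6 of H4, with 22 on chromosome 13 and 4 on chromosome 3. RefSeq held 64 genes of the same naming, of which 54 were on chromosome 13 and 10 on chromosome 3. A further 36 of the histone genes were named only by array rows that carry several symbols, and those rows are described separately.

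The animals were male C57BL/6J mice, 25 months of age. Their plantaris, a fast calf muscle, was overloaded by synergist ablation, the removal of its helpers gastrocnemius and soleus. Muscles were sampled on days 0, 1, 3, 5, 7, 10 and 14, and every day has 2 Affymetrix Mouse Gene 1.0 ST arrays, one of a pool of left muscles and one of a pool of right muscles from 6 animals. All 7 groups share strain, sex and age. No sham-operated, younger or unoperated later group was analysed here, so day, surgery and animals cannot be told apart. The labels do not say whether the day 0 animals were operated. Since a pool gives 1 value, the spread between the 2 arrays of a day holds no animal-to-animal spread, and p-values measure only the spread between pools, which may be technical.

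Replication-dependent histone genes supply the bulk of core and linker histones that package newly made DNA. They lie in clusters, mostly lack introns, and their mRNAs end in a conserved stem-loop in place of a poly(A) tail. Their mRNAs accumulate in S phase and are degraded when DNA synthesis stops, so in adult muscle, whose fibres are postmitotic, they are known chiefly from dividing cells between the fibres. A core nucleosome is built of H2A, H2B, H3 and H4, and H1 binds the linker DNA where it enters and leaves. The labelling kit named in the protocol does not depend on a poly(A) tail.

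The promoters of H2ac4, H2bc3 and H1f5 are shown because each was the member of its protein class with the largest rise, and that of H1f2 because it was lower on all 6 days after day 0. The sequences are RefSeq's, build GRCm38.p6, from 150 bases before to 50 bases after the annotated start, and are written 5′ to 3′ on the strand of the gene. Capitals mark 4 motifs, searched on both strands, which did not overlap one another in any member. They are CCAAT, common in promoters, the octamer ATTTGCAT, known from H2B promoters, the element AAACACA, known from H1 promoters, and the core promoter letters TATAAA. A match on the other strand reads as its reverse complement, such as ATTGG.
H2ac4 promoter, chr13:23750938-23751137, plus strand: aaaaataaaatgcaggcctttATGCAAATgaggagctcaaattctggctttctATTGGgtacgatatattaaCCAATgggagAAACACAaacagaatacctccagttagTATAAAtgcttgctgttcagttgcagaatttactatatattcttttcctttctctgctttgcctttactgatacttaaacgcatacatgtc
H2bc3 promoter, chr13:23746584-23746783, plus strand: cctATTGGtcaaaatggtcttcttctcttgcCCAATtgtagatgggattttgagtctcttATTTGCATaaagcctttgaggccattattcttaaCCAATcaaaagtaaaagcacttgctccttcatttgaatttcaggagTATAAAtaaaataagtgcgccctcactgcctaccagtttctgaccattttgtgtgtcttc
H1f5 promoter, chr13:21780576-21780775, minus strand: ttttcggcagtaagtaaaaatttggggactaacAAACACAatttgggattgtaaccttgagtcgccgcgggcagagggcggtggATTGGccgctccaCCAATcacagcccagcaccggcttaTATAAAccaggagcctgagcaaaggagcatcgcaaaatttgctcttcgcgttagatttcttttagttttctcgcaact
H1f2 promoter, chr13:23738657-23738856, plus strand: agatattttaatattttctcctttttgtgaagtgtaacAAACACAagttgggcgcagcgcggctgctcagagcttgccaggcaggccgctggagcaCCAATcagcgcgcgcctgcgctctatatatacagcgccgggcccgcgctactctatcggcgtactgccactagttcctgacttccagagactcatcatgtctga
Of the 26 members, 22 had a promoter window of 250 bases before to 50 bases after the start in the RefSeq table (not H2bc4, H2bc21, H4c14 and H3c7). CCAAT stood in 19 of the 22 windows (86.4%), against 37.4% of all 32851 windows, and was found in every H1, H2A, H2B and H3 window but in only 2 of the 5 H4 windows. The octamer stood in 8 of 22 windows (36.4%), against 1.74% of all windows. It was in 5 of 7 H2B windows, there on the strand of the gene, and in 3 of 4 H2A windows, there on the opposite strand, and in none of the H1, H3 and H4 windows. H2ac8 and H2bc8 start 179 bp apart and run away from each other, and H2ac1 and H2bc1 do so at 280 bp, so the 2 windows of each pair share 1 octamer. AAACACA stood 117, 122 and 112 bases before the starts of H1f5, H1f3 and H1f2 and in 7 of 22 windows (31.8%), against 7.18% of all. TATAAA stood in 15 of 22 windows (68.2%), against 13.6% of all. Its matches lay on either strand, from 250 bases before the start (H4c6) to 21 bases after it (H2ac15). The share therefore does not count core promoter elements alone. A match is a stretch of letters and shows no bound factor. H1f5 and H1f2 carried CCAAT on the strand of the gene 53 and 54 bases before the start, beside the AAACACA given above, while H1f5 was higher and H1f2 lower than day 0 on days 3 to 10. Their windows differed in other matches. H1f5 had TATAAA 28 bases before the start and CCAAT also at 66 and 168 bases, while H1f2 had no TATAAA and no further CCAAT. Only exact letters were searched, and the H1f2 window shown holds the similar stretch tatatata, which was not counted. A link between motifs and courses was not tested.

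The values are the submitters' log2 signals, and a difference is the mean of both arrays of a day minus that of the day it is set against, with the standard error (SE) of a model fitted to all 14 arrays. A gene is called higher or lower where limma's adjusted p over all 19938 genes was under 0.05. As deposited, the median over all genes differed from day 0 by 0.04 on day 1, -0.07 on day 3, -0.12 on day 5, -0.14 on day 7, -0.13 on day 10 and -0.11 on day 14, and the members' differences can be read against these. The correlation of the left with the right pool over all genes was 0.994 to 0.997 on each day, and no pair of members had the same values.

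Of the 26 members, 9 were lower on day 1 and higher on each of days 3, 5, 7 and 10 (H1f1, H1f5, H2ac4, H2ac15, H2bc3, H2bc14, H4c3, H4c6 and H4c14). On day 1, 16 of 26 were lower and 0 higher, against 22.6% lower and 22.3% higher of all genes (0 higher also at an unadjusted p under 0.05 in limma and under every other setting). On day 3, 14 were higher and 3 lower, against 24.1% and 26.6% of all genes. On day 5, 15 were higher and 3 lower, against 26.4% and 33.7%. On day 7, 16 were higher and 3 lower, against 26.6% and 36.3%. On day 10, 13 were higher and 3 lower, against 25.9% and 34.3%. On day 14, 0 were higher and 4 lower, against 22.9% and 30.5%, and 1 was higher at an unadjusted p under 0.05. Of the counts lower, the 3 of day 10 became 1 without the left pool of that day, and the 4 of day 14 became 2 without either pool of day 0. The members' median difference from day 0 was -0.38 on day 1, 0.53 on day 3, 0.54 on day 5, 0.68 on day 7, 0.34 on day 10 and -0.05 on day 14. In pooled whole muscle, a change in the number of cells of a type cannot be told apart from a change in RNA per cell.

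**Figure D1:**
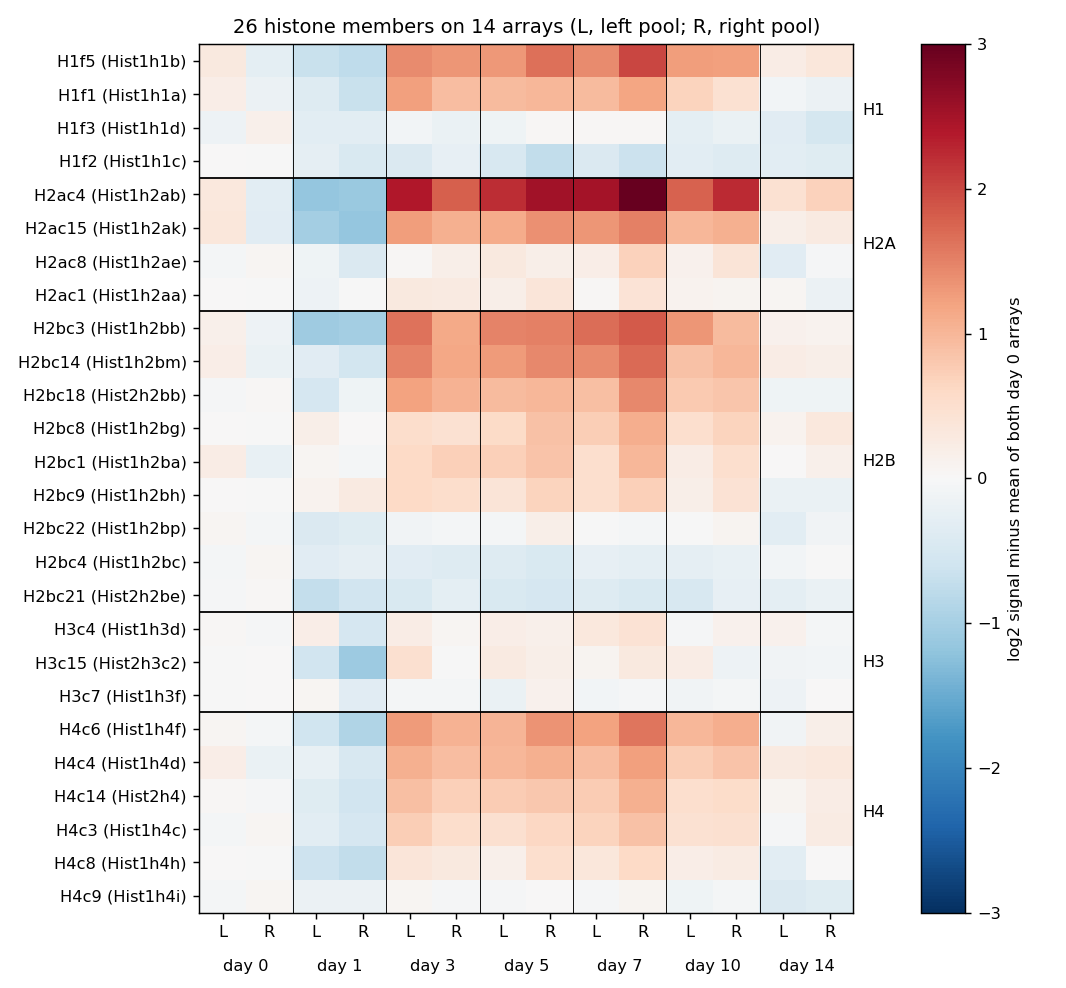
The 26 members are drawn by protein class, with columns for the left (L) and right (R) pool of each day, and colour gives the log2 signal minus the mean of both day 0 arrays. Blue on day 1 and red from day 3 to day 10 is seen in the 9 members lower on day 1 and higher on days 3 to 10, and H1f2, H2bc4 and H2bc21 remain blue on days 1 to 10.

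Over all days, the moderated F test called 24 of 26 members, against 79.5% of all genes; H3c4 (adjusted p = 0.202) and H3c7 (adjusted p = 0.946) were not called. The day of the highest mean was day 7 for 17 members and day 0 for 4, and the day of the lowest mean was day 1 for 20. Both arrays of day 7 lay above both of day 0 for 19 members and below them for 4, and the arrays overlapped for 3. On day 14, 4 lay above, 8 below and 14 overlapped. The counts of peak days and of overlap were not made over all genes, so they only describe these members.

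**Figure D2:**
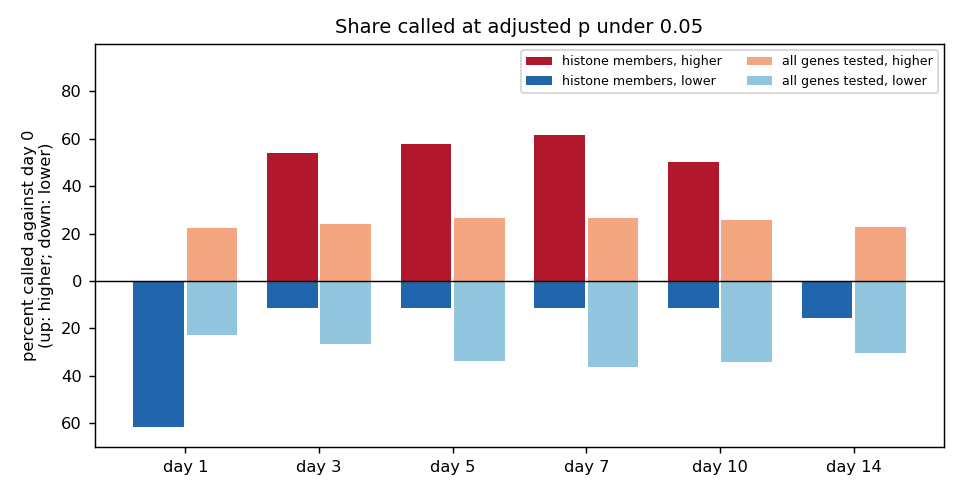
Bars give the percent of the 26 histone members (dark) and of all 19938 genes (light) called against day 0 on each day, higher upwards and lower downwards. On day 7, 61.5% of members and 26.6% of all genes were higher, and on day 1, 61.5% of members and 22.6% of all genes were lower.

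The 4 H1 genes split into 2 that rose and 2 that did not. H1f5 (older name Hist1h1b), a linker histone of dividing cells, had log2 signals in the left and right pools of 9.22 and 8.64 on day 0 and 8.27 and 8.18 on day 1. H1f5 then had 10.34 and 10.24 on day 3, 10.23 and 10.58 on day 5, 10.35 and 10.94 on day 7, 10.18 and 10.17 on day 10 and 9.16 and 9.27 on day 14. All 8 arrays of days 3 to 10 were above both day 0 arrays, and both day 1 arrays were below them, while day 14 overlapped with day 0. The day 7 difference was 1.71 ± 0.20 (SE, 3.28-fold, limma adjusted p = 9.8e-06), and the day 1 difference was -0.71 ± 0.20 (SE, adjusted p = 0.0106). H1f1 (Hist1h1a) had 9.27 and 8.89 on day 0 and 8.69 and 8.41 on day 1. H1f1 then had 10.30 and 10.01 on day 3, 10.04 and 10.08 on day 5, 10.03 and 10.26 on day 7, 9.74 and 9.53 on day 10 and 8.997 and 8.90 on day 14. It too was lower on day 1 and higher on days 3 to 10, with 1.07 ± 0.15 (SE) on day 3 (adjusted p = 4.31e-05) and -0.53 ± 0.15 (SE) on day 1 (adjusted p = 0.00962). Its day 10 difference of 0.55 was 0.37 without the right pool of day 0 and 0.45 without the left pool of day 10, both uncalled.

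H1f2 (Hist1h1c), a linker histone whose human counterpart also gives polyadenylated transcripts, ran the other way with 11.79 and 11.79 on day 0 and 11.51 and 11.34 on day 1. H1f2 then had 11.37 and 11.54 on day 3, 11.31 and 11.05 on day 5, 11.37 and 11.15 on day 7, 11.47 and 11.40 on day 10 and 11.48 and 11.43 on day 14. Both day 0 arrays were the highest of the 14. It was lower on all 6 days, with differences of -0.61 ± 0.11 (SE) on day 5 (adjusted p = 0.000336) and -0.53 ± 0.11 (SE) on day 7 (adjusted p = 0.000957). These 2 calls held without any 1 array. A median shift to day 0, which removed each array's median difference from day 0 over all genes, changed the other days. The differences of -0.33 on day 3, -0.35 on day 10 and -0.34 on day 14 became -0.27, -0.23 and -0.23 and were no longer called. They were also lost, at -0.24 to -0.34, without the left or the right pool of day 0 (days 3 and 14), the left pool of day 3, the right pool of day 10 or the right pool of day 14. H1f3 (Hist1h1d) had 6.85 and 7.16 on day 0 and 6.68 and 6.69 on day 1. H1f3 then had 6.92 and 6.80 on day 3, 6.88 and 7.03 on day 5, 7.04 and 7.03 on day 7, 6.72 and 6.79 on day 10 and 6.66 and 6.47 on day 14. It lay below day 0 on day 14 (-0.44 ± 0.10 SE, adjusted p = 0.00396; -0.29 without the right pool of day 0), and no rise was called. Each day 1 call among the H1 genes was lost without some single array. H1f5 had -0.42 and H1f1 -0.34 without the left pool of day 0, H1f3 had -0.16 without its right pool, and H1f2 had -0.28 without the right pool of day 1, all uncalled.

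Among the 4 H2A genes, H2ac4 (Hist1h2ab) showed the widest course of all 26 members, with log2 signals of 5.86 and 5.24 on day 0 and 4.39 and 4.44 on day 1. H2ac4 then had 7.96 and 7.35 on day 3, 7.77 and 8.06 on day 5, 8.04 and 8.60 on day 7, 7.32 and 7.80 on day 10 and 5.999 and 6.24 on day 14. Both day 1 arrays were the lowest, and every array of days 3 to 10 was above every array of days 0, 1 and 14. The difference from day 0 was -1.13 ± 0.25 (SE) on day 1 (adjusted p = 0.00262) and 2.77 ± 0.25 (SE) on day 7 (6.84-fold, adjusted p = 1.29e-06). On day 14 it was 0.57 ± 0.25 (SE, adjusted p = 0.0744). It was called as 0.88 without the left pool of day 0 and as 0.68 after the median shift to day 0. H2ac15 (Hist1h2ak), which like H2ac4 encodes a canonical H2A, had 10.91 and 10.24 on day 0 and 9.56 and 9.40 on day 1. H2ac15 then had 11.83 and 11.65 on day 3, 11.68 and 11.95 on day 5, 11.90 and 12.09 on day 7, 11.57 and 11.65 on day 10 and 10.76 and 10.85 on day 14. It was lower on day 1, at -1.09 ± 0.17 (SE, adjusted p = 0.000222), and higher on day 7, at 1.42 ± 0.17 (SE, adjusted p = 1.79e-05).

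Of the other two H2A genes, H2ac8 was called on 1 day and H2ac1 on none. H2ac8 (Hist1h2ae) had 4.58 and 4.70 on day 0 and 4.51 and 4.22 on day 1. H2ac8 then had 4.68 and 4.82 on day 3, 4.93 and 4.82 on day 5, 4.85 and 5.33 on day 7, 4.77 and 5.02 on day 10 and 4.30 and 4.60 on day 14. It was called on day 7 only, at 0.45 ± 0.16 (SE, adjusted p = 0.0278), with 0.20 and no call without the right pool of day 7, and 0.69 without the left. That call was also lost without the left (0.39) or the right pool (0.51) of day 0. H2ac1 (Hist1h2aa), the testis-type H2A, had 8.61 and 8.59 on day 0 and 8.45 and 8.58 on day 1. H2ac1 then had 8.89 and 8.87 on day 3, 8.77 and 8.97 on day 5, 8.63 and 9.01 on day 7, 8.70 and 8.68 on day 10 and 8.66 and 8.42 on day 14, and no day was called against day 0; its largest difference was 0.28 ± 0.12 (SE) on day 3 (adjusted p = 0.075). After the median shift to day 0, H2ac1 was called higher at 0.35 on day 3, 0.39 on day 5 and 0.35 on day 7. Without the left pool of day 7 it was called at 0.41 on that day.

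**Figure D3:**
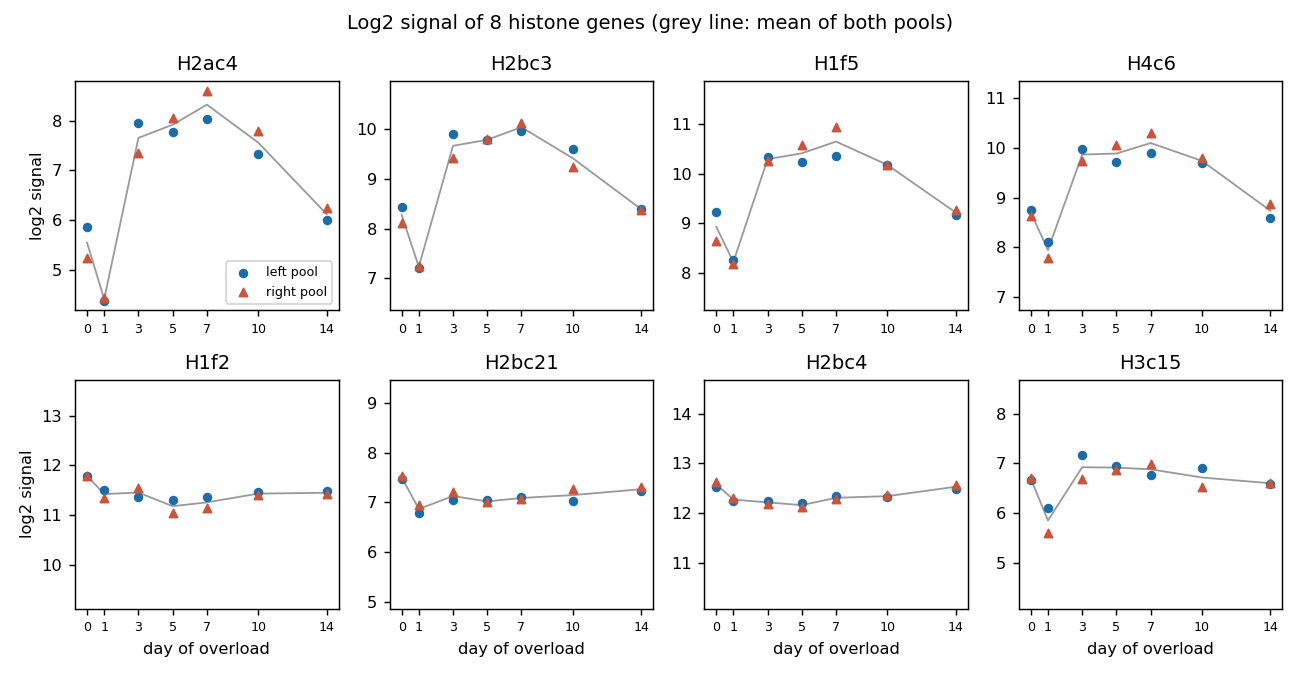
Log2 signal by day of overload for 8 members, with the left pool as circles, the right pool as triangles and a grey line through the mean of both; every panel spans the same number of log2 units. H2ac4, H2bc3, H1f5 and H4c6 dip on day 1 and are highest on day 7, H1f2, H2bc21 and H2bc4 start highest on day 0, and H3c15 dips on day 1 alone.

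Of the 9 H2B genes, 6 were higher on day 7, 2 lower and 1 not called. H2bc3 (Hist1h2bb), a canonical H2B, had log2 signals of 8.43 and 8.12 on day 0 and 7.21 and 7.25 on day 1. H2bc3 then had 9.91 and 9.42 on day 3, 9.77 and 9.80 on day 5, 9.96 and 10.11 on day 7, 9.59 and 9.23 on day 10 and 8.39 and 8.38 on day 14. Both day 1 arrays were below the other 12, and all arrays of days 3 to 10 were above day 0. The difference was -1.04 ± 0.16 (SE) on day 1 (adjusted p = 0.000131) and 1.76 ± 0.16 (SE) on day 7 (3.39-fold, adjusted p = 1e-06). H2bc14 (Hist1h2bm) had 10.09 and 9.71 on day 0 and 9.56 and 9.35 on day 1. H2bc14 then had 11.40 and 11.05 on day 3, 11.18 and 11.35 on day 5, 11.31 and 11.60 on day 7, 10.79 and 10.90 on day 10 and 10.14 and 10.08 on day 14, with 1.55 ± 0.15 (SE) on day 7 (adjusted p = 1.95e-06). Its fall on day 1, -0.45 ± 0.15 (SE, adjusted p = 0.0266), was -0.26 without the left pool of day 0 and -0.34 without the right pool of day 1, both uncalled. H2bc18 (Hist2h2bb), from the chromosome 3 cluster, had 8.002 and 8.06 on day 0 and 7.53 and 7.90 on day 1. H2bc18 then had 9.23 and 9.08 on day 3, 8.99 and 9.02 on day 5, 8.93 and 9.48 on day 7, 8.82 and 8.86 on day 10 and 7.90 and 7.90 on day 14, with 1.17 ± 0.15 (SE) on day 7 (adjusted p = 3.21e-05) and no call on day 1 (-0.32 ± 0.15 SE, adjusted p = 0.115). On day 1 H2bc18 was called lower at -0.51 without the right pool of day 1, and at its unchanged difference without either pool of day 7.

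H2bc1 (Hist1h2ba), the testis-type H2B, had 6.78 and 6.33 on day 0 and 6.60 and 6.49 on day 1. H2bc1 then had 7.16 and 7.28 on day 3, 7.26 and 7.41 on day 5, 7.06 and 7.55 on day 7, 6.78 and 7.07 on day 10 and 6.57 and 6.70 on day 14. Unlike its divergent neighbour H2ac1 it was called higher on days 3, 5 and 7, with 0.78 ± 0.17 (SE) on day 5 (adjusted p = 0.00169); a test of the difference between these neighbours was not made. Its day 3 value of 0.66 became 0.43 and uncalled without the right pool of day 0. H2bc8 and H2bc9 rose on days 3 to 10, by 0.91 and 0.62 on day 7. H2bc22 was lower on day 1 only, at -0.40 ± 0.10 (SE, adjusted p = 0.00477).

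H2bc21 (Hist2h2be) and H2bc4 (Hist1h2bc), whose human counterparts also give polyadenylated transcripts, were the lowered H2B genes. H2bc21 had 7.47 and 7.54 on day 0 and 6.79 and 6.94 on day 1. H2bc21 then had 7.05 and 7.20 on day 3, 7.04 and 6.998 on day 5, 7.12 and 7.06 on day 7, 7.03 and 7.26 on day 10 and 7.22 and 7.31 on day 14. All 12 arrays after day 0 were below both day 0 arrays, and the fall was largest on day 1, at -0.64 ± 0.092 (SE, adjusted p = 9.85e-05). H2bc4 had 12.53 and 12.64 on day 0 and 12.24 and 12.31 on day 1. H2bc4 then had 12.24 and 12.19 on day 3, 12.20 and 12.13 on day 5, 12.34 and 12.28 on day 7, 12.32 and 12.36 on day 10 and 12.49 and 12.58 on day 14. It was lower on days 1 to 10, most on day 5 at -0.42 ± 0.072 (SE, adjusted p = 0.000304), and overlapped with day 0 on day 14 (-0.05). After the median shift to day 0, H2bc21 on day 14 was -0.14 and H2bc4 on days 7 and 10 was -0.14 and -0.12, all uncalled. The H2bc21 day 14 call (adjusted p = 0.0444) was also lost, at -0.20 to -0.28, without any 1 of the arrays of days 0, 5, 7 and 14. Without the left pool of day 10, H2bc21 on that day was -0.24 and H2bc4 -0.22, and without the right pool of day 0, H2bc4 was -0.22 on day 7 and -0.18 on day 10, all uncalled. In RefSeq, H2bc21, H2bc4 and H2bc22 span 2667, 8282 and 14079 bp, while the other 23 members span 375 to 903 bp. The 2 lowered H2B genes were among the 3 longest loci, and the third long one, H2bc22, was not called after day 1. H1f2, which was also lower, spans 725 bp. The form of the transcripts was not measured, and a link between locus length and these falls was not tested.

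Only 3 H3 genes had a row of their own, and none of them was called higher on any day. H3c15 (Hist2h3c2), a canonical H3 gene, had 6.68 and 6.70 on day 0 and 6.11 and 5.59 on day 1. H3c15 then had 7.17 and 6.68 on day 3, 6.96 and 6.87 on day 5, 6.77 and 6.99 on day 7, 6.90 and 6.53 on day 10 and 6.59 and 6.61 on day 14. Both day 1 arrays were the lowest of the 14, and the day 1 difference was -0.84 ± 0.18 (SE, adjusted p = 0.00216). Its day 3 difference was 0.23 ± 0.18 (SE, adjusted p = 0.314). H3c4 ranged over the 14 arrays from 7.11 to 8.05 with a median of 7.75, and H3c7 from 4.61 to 5.10 with a median of 4.91.

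The H3 genes were read mostly by array rows that name several histone genes at once. There were 26 such rows, comprising 10 for H3, 7 for H2B, 6 for H4, 2 naming H2A genes with an H3 gene, and 1 naming H2bc6 with H1f4. Fitted with all 35557 rows, 24 of the 26 were lower on day 1 (all rows 17.4%) and 0 higher (16.5%). On day 3, 25 were higher (all rows 20.2%) and 1 lower (19.7%). The count higher was 25 on day 5 (22.4%), 25 on day 7 (22.8%, with 27.4% of all rows lower), 24 on day 10 (22.4%) and 0 on day 14 (18.8%). The 10 H3 rows had a median log2 signal of 12.6 and 11.8 in the left and right pools of day 0, 11.7 and 11.1 on day 1, 13.7 and 13.6 on day 3, 13.7 and 13.8 on day 5, 13.7 and 14.0 on day 7, 13.5 and 13.6 on day 10 and 12.9 and 12.7 on day 14. The left and right pools of day 0 differed by more than those of any later day from day 3 on, and the left pool of day 1 was close to the right pool of day 0. The median H3 row differed from day 0 by -0.78 on day 1, 1.63 on day 7 and 0.62 on day 14, and 0 of the 10 were called on day 14. All 10 name the same 12 H3 genes, among them H3c4, H3c7 and H3c15, so they are repeated readings of near-identical mRNAs and not 10 independent genes. The H2B rows each name 14 or 15 largely shared genes, and most H4 rows the same 11. A pair of H2B rows and a pair of H4 rows had equal values on all 14 arrays. The 26 rows are thus not 26 independent measurements. The row of H2bc6 and H1f4 was lower on days 1, 3, 10 and 14, with -0.42 on day 14.

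**Figure D4:**
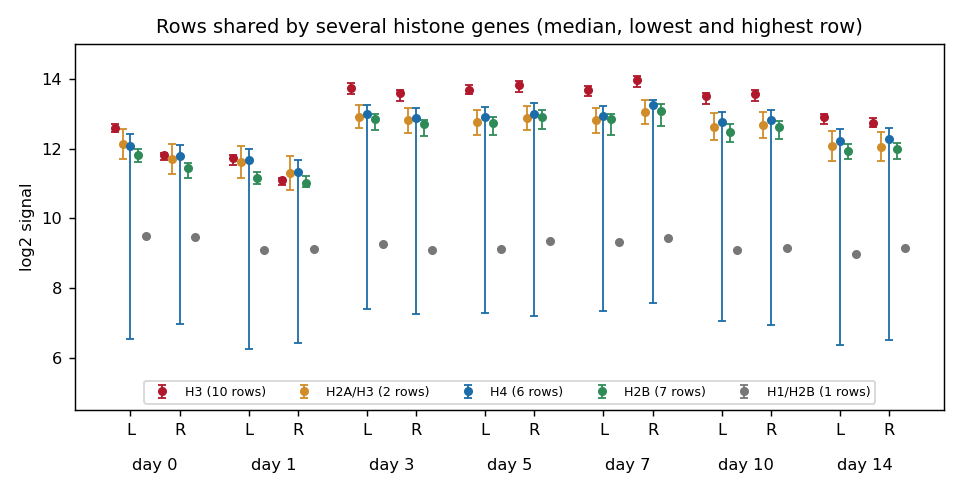
Points give the median log2 signal of the rows that name several histone genes, by class, and bars run from the lowest to the highest row, for the left (L) and right (R) pool of each day. The 10 H3 rows stand at 12.6 and 11.8 on day 0, 11.7 and 11.1 on day 1 and 13.7 and 14.0 on day 7, and the single row of H2bc6 and H1f4 does not share this course.

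Of the 26 members, 18 were also named by such shared rows. Probes for paralogues this alike may bind each other's mRNA, so a value of a single canonical H2A, H2B, H3 or H4 gene is uncertain as to which copy it measured.

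All H4 genes encode the same core protein, and 5 of the 6 H4 members were higher on day 7. H4c6 (Hist1h4f) had 8.76 and 8.64 on day 0 and 8.11 and 7.79 on day 1. H4c6 then had 9.99 and 9.74 on day 3, 9.72 and 10.05 on day 5, 9.90 and 10.30 on day 7, 9.69 and 9.79 on day 10 and 8.60 and 8.88 on day 14. The day 1 arrays were lowest and those of days 3 to 10 all above the other days; the difference was -0.75 ± 0.16 (SE) on day 1 (adjusted p = 0.00207) and 1.40 ± 0.16 (SE) on day 7 (2.63-fold, adjusted p = 1.08e-05). H4c4 (Hist1h4d) had 12.64 and 12.24 on day 0 and 12.21 and 11.95 on day 1. H4c4 then had 13.50 and 13.36 on day 3, 13.42 and 13.51 on day 5, 13.37 and 13.67 on day 7, 13.17 and 13.29 on day 10 and 12.72 and 12.75 on day 14, and differed by 1.08 ± 0.14 (SE) on day 7 (adjusted p = 2.34e-05). H4c14 (Hist2h4), from chromosome 3, had 10.97 and 10.88 on day 0 and 10.56 and 10.34 on day 1. H4c14 then had 11.83 and 11.64 on day 3, 11.68 and 11.74 on day 5, 11.69 and 11.98 on day 7, 11.43 and 11.48 on day 10 and 11.01 and 11.14 on day 14. Its difference was -0.47 ± 0.11 (SE) on day 1 (adjusted p = 0.0035) and 0.92 ± 0.11 (SE) on day 7 (adjusted p = 1.42e-05).

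H4c8 (Hist1h4h) had 7.52 and 7.51 on day 0 and 6.90 and 6.77 on day 1. H4c8 then had 7.87 and 7.80 on day 3, 7.67 and 8.01 on day 5, 7.86 and 8.10 on day 7, 7.70 and 7.77 on day 10 and 7.20 and 7.53 on day 14. It differed by -0.68 ± 0.13 (SE) on day 1 (adjusted p = 0.000849) and by 0.47 ± 0.13 (SE) on day 7 (adjusted p = 0.00784), the day 7 call being lost at 0.34 without the right pool of that day. H4c3 was lower on day 1 and higher on days 3 to 10, by 0.78 on day 7. H4c9 was called on day 14 only, at -0.40 ± 0.076 (SE, adjusted p = 0.000905).

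Between successive days, the largest number of calls and the largest median difference were those of day 3 against day 1. The step to day 1 is given above, with 16 lower and a median of -0.38. On day 3, 19 of 26 members were higher than on day 1 and 0 lower (all genes 19.5% and 24.7%), and the median difference was 0.84. H2ac4 differed by 3.24 ± 0.25 (SE, adjusted p = 1.55e-06) and H2bc3 by 2.43 ± 0.16 (SE, adjusted p = 3.32e-07). From day 3 to 5 no member was called higher or lower in limma (all genes 4.68% and 1.9%; unadjusted 0 and 1), nor from day 5 to 7 (all genes 0.401% and 0.627%; unadjusted 0 and 0). From day 7 to 10, 0 were called higher or lower (all genes 0.933% and 1%), with 14 lower at an unadjusted p under 0.05 and 1 to 3 lower in some other settings. From day 10 to 14, 11 members were lower (all genes 5.11%) and 0 higher (3.79%; 1 unadjusted), with a median of -0.37 and a difference of -1.44 ± 0.25 for H2ac4 (SE, adjusted p = 0.00661). That count of 11 was 1 without the right pool of day 10, 6 without its left pool, 3 without the left pool of day 14 and 6 without its right pool.

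Left and right pools differed in a way that changed over the course. The right pool was lower than the left for 17, 17 and 20 of the 26 members on days 0, 1 and 3, and higher for 20, 21, 20 and 18 on days 5, 7, 10 and 14. The median absolute difference between pools was 0.10 to 0.22 for members and 0.08 to 0.11 for all genes. The members share probes and pools, so these counts are no independent votes. Without the left pool of day 0, 12 members were lower on day 1 and 4 were higher on day 14; without the right pool of day 1, 11 were lower on day 1.

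The 5 histone genes that only their newer symbols put outside the rule were called on different days. H2aw (older name Hist3h2a), a canonical-type H2A gene outside the main clusters, was lower on day 1 (-0.48 ± 0.092 SE, adjusted p = 0.000893) and higher on day 3 (0.70 ± 0.092 SE, adjusted p = 3.13e-05). Its log2 signals on days 5, 7 and 10 were 10.97 to 11.13, also above the 10.66 and 10.48 of day 0. H4f16 (Hist4h4), the lone H4 gene outside the main clusters, was higher on days 3 to 10, by 0.61 ± 0.12 (SE) on day 7 (adjusted p = 0.000897). Without the right pool of day 0, its 0.48 on day 5 was 0.36 and its 0.41 on day 10 was 0.29, both uncalled. The day 10 value was also uncalled without the left pool of day 10 (0.38) and after quantile normalization (0.27). The testis linker histone H1f6 (Hist1h1t) was lower on days 10 and 14, at -0.32 ± 0.095 (SE) on day 10 (adjusted p = 0.012; -0.27 and uncalled without the left pool of day 10 or the right pool of day 0). Its day 14 value of -0.30 was -0.25 without the right pool of day 0 and -0.22 without the right pool of day 14, both uncalled. H2bu2 (Hist3h2ba) was lower on day 14 (-0.30 ± 0.10 SE, adjusted p = 0.0276; -0.18 without the right pool of day 14 and -0.25 without that of day 0, both uncalled), and H2bu1-ps (Hist3h2bb) on day 1 (-0.37 ± 0.13 SE, adjusted p = 0.0339; -0.13 and uncalled without the left pool of day 1, -0.60 without the right). That call was also lost, at -0.36 to -0.37, without either pool of day 0.

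Of 9 histone variants that are made outside S phase as well, 6 were higher and 1 lower on day 7 (66.7% and 11.1%, against 26.6% and 36.3% of all genes), with a median difference of 0.41. H2az1, an H2A.Z, had 10.98 and 10.66 on day 0 and 10.81 and 10.65 on day 1. H2az1 then had 11.58 and 11.62 on day 3, 11.59 and 11.71 on day 5, 11.65 and 11.84 on day 7, 11.40 and 11.37 on day 10 and 10.83 and 10.81 on day 14, with -0.09 ± 0.11 (SE) on day 1 (adjusted p = 0.544) and 0.92 ± 0.11 (SE) on day 7 (adjusted p = 1.08e-05). Its paralogue H2az2 had 11.48 and 11.49 on day 0 and 10.45 and 10.45 on day 1. H2az2 then had 10.35 and 10.41 on day 3, 10.67 and 10.51 on day 5, 10.88 and 10.87 on day 7, 10.78 and 10.88 on day 10 and 10.83 and 10.81 on day 14, and was lower on every day after day 0, at -1.10 ± 0.073 (SE) on day 3 (adjusted p = 8.56e-08). H2ax, which is phosphorylated at DNA breaks, was higher by 0.80 ± 0.12 (SE) on day 7 (adjusted p = 0.000107), and Cenpa, the H3 of centromeres, by 2.11 ± 0.14 (SE, adjusted p = 1.12e-07). Macroh2a2 was still higher by 1.36 ± 0.23 (SE) on day 14 (adjusted p = 0.000328). H3f3a, the replacement H3, was called on no day, and its day 7 difference was 0.10 ± 0.13 (SE, adjusted p = 0.503). Without the left pool of day 0, H3f3a was called higher at 0.31 on day 5, 0.31 on day 7 and 0.36 on day 10.

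Of 17 genes for histone gene transcription and mRNA 3′ end processing, 8 were higher and 2 lower on day 1 (47.1% and 11.8%, against 22.3% and 22.6% of all genes), and 13 higher and 1 lower on day 7 (76.5% and 5.88%, against 26.6% and 36.3%; median 0.39). The 8 of day 1 were 4 without the right pool of day 0, 3 without the left pool of day 1 and 5 without its right pool. Slbp, whose product binds the stem-loop of histone mRNAs, had 8.74 and 8.26 on day 0 and 8.93 and 8.88 on day 1. Slbp then had 9.11 and 9.36 on day 3, 9.19 and 9.23 on day 5, 9.09 and 9.23 on day 7, 8.81 and 8.87 on day 10 and 8.64 and 8.60 on day 14. It was higher by 0.40 ± 0.13 (SE) on day 1 (adjusted p = 0.0257) and by 0.73 ± 0.13 (SE) on day 3 (adjusted p = 0.000472); its day 1 difference was 0.16 and uncalled without the right pool of day 0, and 0.65 without the left. The day 1 call was also lost without the left (0.38) or the right pool (0.43) of day 1. Eri1, an exonuclease that trims histone mRNA ends, was higher on day 1 by 0.79 ± 0.14 (SE, adjusted p = 0.000493). Ccne2, a cyclin E gene, had 8.33 and 8.11 on day 0 and 7.73 and 7.79 on day 1. Ccne2 then had 8.58 and 8.72 on day 7 and 7.72 and 7.88 on day 14. Cdk2 and Ccne1, the kinase and cyclin E that act on the histone locus coactivator Npat, were higher on day 7 by 1.61 ± 0.12 (SE, adjusted p = 1.65e-07) and 1.56 ± 0.15 (SE, adjusted p = 2.03e-06). Npat itself differed by 0.29 ± 0.089 (SE, adjusted p = 0.0144), which was not called after quantile normalization, without the right pool of day 0 (0.19) or without the right pool of day 7 (0.22).

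Of 18 histone chaperones and assembly factors, 6 were higher and 3 lower on day 1 (33.3% and 16.7%, against 22.3% and 22.6% of all genes), and 11 higher and 2 lower on day 7 (61.1% and 11.1%, against 26.6% and 36.3%; median 0.42). Chaf1b, a subunit of the assembly factor that follows the replication fork, was higher by 0.61 ± 0.12 (SE) on day 1 (adjusted p = 0.00139; 0.39 without the right pool of day 0) and 2.18 ± 0.12 (SE) on day 5 (adjusted p = 2.23e-08). Asf1b, which hands on H3 and H4, was higher by 2.04 ± 0.13 (SE) on day 7 (adjusted p = 7.25e-08), and Nap1l1, a chaperone of H2A and H2B, by 0.99 ± 0.088 (SE) on day 5 (adjusted p = 9.35e-07).

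Of 35 genes for DNA replication and S phase, 9 were higher and 6 lower on day 1, which at 25.7% and 17.1% lay near the 22.3% and 22.6% of all genes. Without the right pool of day 0 these were 4 and 8, and without the left 13 and 4. On day 3, 31 were higher and 1 lower (88.6% and 2.86%, against 24.1% and 26.6%), and on day 7, 32 were higher and 0 lower (91.4% and 0%, against 26.6% and 36.3%). The medians were 0.13, 0.97 and 1.15. Ccna2, cyclin A, had 8.86 and 7.77 on day 0 and 8.02 and 7.39 on day 1. Ccna2 then had 10.97 and 10.95 on day 3, 11.14 and 11.42 on day 5, 11.12 and 11.44 on day 7, 10.48 and 10.62 on day 10 and 9.57 and 9.42 on day 14. Its day 1 arrays spanned the right pool of day 0, and it differed by -0.61 ± 0.28 (SE) on day 1 (adjusted p = 0.099; called as -1.15 without the right pool of day 0 and as -0.92 without the left pool of day 1) and 2.96 ± 0.28 (SE) on day 7 (adjusted p = 1.8e-06). Rrm2, a subunit of the enzyme that makes deoxyribonucleotides, was higher by 2.65 ± 0.25 (SE) on day 5 (adjusted p = 1.66e-06), Tyms, thymidylate synthase, by 2.34 ± 0.18 (SE, adjusted p = 2.75e-07), and E2f1, an activator of S phase genes, by 1.33 ± 0.12 (SE, adjusted p = 9.03e-07). Of 19 mitosis genes, 0 were higher and 4 lower on day 1 (21.1%, against 22.6% of all genes), and 19 were higher on each of days 3, 5 and 7 (medians -0.32 on day 1 and 2.11 on day 7). The pools of day 0 differed in this list. Its day 1 median was -0.09 with 1 gene lower without the left pool of day 0, and -0.56 with 12 lower without the right. The mitotic kinases Bub1 and Plk1 were higher by 3.06 ± 0.28 (SE) and 2.77 ± 0.12 (SE) on day 5, and Prc1, which bundles spindle microtubules, by 2.93 ± 0.21 (SE), with adjusted p of 1.22e-06, 2.54e-09 and 1.48e-07. On day 14, 14 of the 19 mitosis genes and 14 of the 35 S phase genes were still higher, with medians of 0.56 and 0.21, against 0 of the 26 histone members and a median of -0.05. As shares these are 73.7% and 40%, against 22.9% of all genes. The 26 rows naming several histone genes had a day 14 median of 0.34, and the 10 H3 rows among them 0.62. Of the 26, 0 were called higher, against 18.8% of all rows. The medians of the mitosis and S phase genes were 0.34 and 0.20 without the right pool of day 0, and 0.76 and 0.35 without the left. The 14 mitosis genes were 8 without the right pool of day 0 and 8 without the left pool of day 14. A test between these lists was not made.

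**Figure D5:**
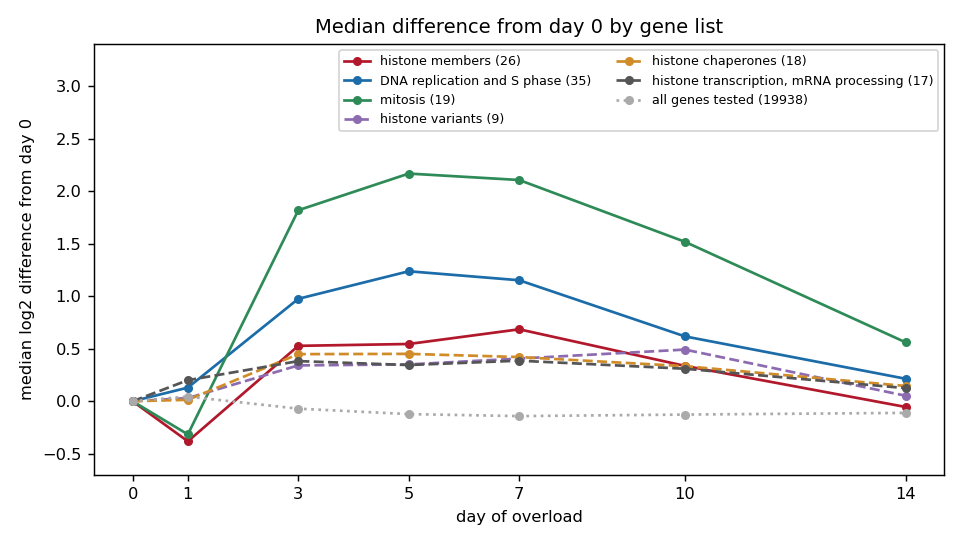
Lines join the median log2 difference from day 0 of each gene list on each day, with the number of genes in brackets, and the dotted line is the median of all genes tested. The histone members' median is -0.38 on day 1, 0.68 on day 7 and -0.05 on day 14, and that of the mitosis genes is -0.32 (-0.09 without the left pool of day 0), 2.11 and 0.56.

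Markers of other cells also changed over the days, but not all with the course of the histone members. The background for the marker counts is the called share of the 19938 genes. Against day 0 this share was 22.3% higher and 22.6% lower for day 1, and 24.1% and 26.6% for day 3. It was 26.6% and 36.3% for day 7, and 22.9% and 30.5% for day 14. The lower share was 33.7% for day 5 and 34.3% for day 10. For day 3 against day 1, the higher share was 19.5%. Muscle fibre markers, which check the tissue label, had a median log2 signal of 14.0 in both day 0 pools, and 9 of 10 were lower on day 3. Of 9 macrophage markers, 7 were higher on day 1, 9 on day 3 and 8 on day 14, and 0 were lower on these days. Their summed linear signal was 33830 to 40720 on days 3 to 7, against 8197 and 6018 on day 0. Of 5 endothelial markers, 3 were lower and 0 higher on day 1. Their day 1 median of -0.43 was -0.40 without the left pool of day 0. It was -0.19 without the right pool of day 1 and -0.66 without the left pool of day 1. On day 7, 4 endothelial markers were higher and 1, Kdr, was lower, at -0.62. All 5 were higher on day 3 than on day 1. Their sums were 7742 and 6309 on day 1, 10250 and 10120 on day 3 and 11810 and 11750 on day 7, against 8760 and 8620 on day 0. Of 6 fibroblast markers, 3 were lower and 2 higher on day 1 and 5 higher on day 7, and all 6 were higher on day 3 than on day 1. The count of 3 was 2 without the left pool of day 0 or the left pool of day 1. Of 6 satellite cell and myoblast markers, 2 were higher on day 1 and 6 on day 7. Of 3 T cell markers, 0 were called on day 1. On each of days 7 and 14, 2 were higher and 0 lower, with medians of 0.34 and 0.92. All 6 neutrophil markers were higher on day 1. On day 7, 1 of them was higher and 4 lower, and on day 14, 0 were higher and 5 lower. Granulocyte precursor markers, from cells that divide in bone marrow, were lower than on day 0 from day 3 on. On day 1, 33.3% of them were lower, against 22.6% of all genes. Of 6, 2 were lower on day 1 and 6 on each later day (1 on day 1 and 1 to 5 on the later days without the left pool of day 0), and their summed signal was 3475 and 2356 in the left and right pools of day 1, against 8832 and 5333 on day 0. Of 3 red blood cell precursor markers 1 was lower on day 1, with sums of 2395 and 1835 on day 1 against 3574 and 1862 on day 0. Of 3 B cell markers 0 were called on day 1, with sums of 674 and 612 on day 1 against 945 and 577 on day 0. In each of these 3 lists the left pool of day 0 had the highest sum of all 14 arrays. The part of these cells in the histone genes' course was not tested.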

How the data were processed

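The deposited table holds log2 signals per array row, normalized between arrays by the authors. Their software was Partek, per the submitters' processing notes, which give no version. The normalization method and the genome build of the annotation were not given in the sources used here. Values lay between 2.35 and 14.8; array medians were 7.91 to 7.97. The labels conflict on RNA input: 250 ng by the labelling protocol, 100 ng by the design text. No scanner file was used, so no detection call stands behind a value, and 14 arrays limit the precision.

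Rows were named from GEO's platform annotation, with symbols updated through RefSeq. Of 35557 rows, 21789 had 1 symbol, 1621 several and 12147 none. A gene's row of highest mean was kept (19938 genes, no filter on low values). Groups are the labelled days. limma 3.58.1 in R 4.3.3 (lmFit, eBayes) was fitted to all 14 arrays with day as group, with 7 residual and 4.95 prior degrees of freedom. Two-sided p-values were Benjamini-Hochberg adjusted across the 19938 genes, with a threshold of 0.05. Rows naming several genes came from the same fit on all rows.

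Values on all arrays are given for the 3 members of each class with the largest called difference whose arrays did not overlap with day 0, for up to 2 lowered members of each class, and for a set of fixed names, plus the 3 genes of each list with the largest called difference. Members and lists were chosen with earlier results of these data known. H3c4 and H3c7 and the remaining members are given by ranges and counts. On simulated data for day 3 against day 0 (19938 genes), 8% of 50 changes of 0.25 on the log2 scale, 60% of 0.5 and 100% of 1 were recovered, with 2 false calls. Far fewer genes were changed there than were called on day 3 in the data (24.1% higher and 26.6% lower). The adjusted threshold was therefore stricter in the simulation, and these shares do not give the sensitivity of the tests on the data.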

Additional observations from a re-analysis of the deposited data

How the results depend on the processing

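Counts were recomputed after quantile normalization, equal array medians and a median shift to day 0 (chosen after seeing the data). That shift removed each array's median difference from day 0 over all genes. Other settings were leaving out the lowest 25% of genes, testing all rows, averaging a gene's rows, robust estimation with an intensity trend and weights per array. Further ones were only the arrays of the days compared, a threshold of 0.01, a block for side, and leaving out each array in turn. No result reversed. Of the recomputed counts, 241 stayed within 1.5 times and 11 moved; with arrays left out, 309 stayed and 13 moved. The cause of a move was not tested. The members lower on day 10 than on day 7 (0) were 2 with the lowest 25% left out, 3 with trend and robust estimation, 3 with array weights and 1 after the median shift. Those lower on day 14 than on day 10 (11) were 6 with all rows tested and 4 at 0.01. Those lower than day 0 on day 10 (3) were 1 at 0.01 and 1 after the median shift, and those on day 14 (4) were 2 and 2. Those higher on day 14 (0) were 2 after the median shift. Leaving out 1 array gave 0 to 1 members lower on day 10 than on day 7, 1 to 12 on day 14 than on day 10, 1 to 4 lower than day 0 on day 10, 2 to 4 lower and 0 to 4 higher on day 14, and 11 to 18 lower on day 1. The members higher than day 0 ranged over 13 to 15 on day 3, 14 to 16 on day 5, 14 to 17 on day 7 and 11 to 14 on day 10. Of the values of named genes, 77 lost and 32 gained a call under other settings, and 93 and 46 with arrays left out. With side as a block, 15 members were higher on day 3 against 14 without it, 16 on day 7 and 16 lower on day 1. Right-minus-left differences over all genes correlated at a median of 0.066 over 21 pairs of days (-0.19 to 0.35), with 6 over 0.1. Such a correlation can show only a side difference shared between days, so it cannot decide whether the 2 pools of a day are linked. The counts of the other gene lists and cell markers without single arrays were added after seeing the data.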
